A study of Mus musculus with 14 samples.

Results

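RNA from regulatory T cells (Tregs) that lacked the fatty acid receptor CD36 and had infiltrated a melanoma was compared with RNA from wild-type Tregs of lymph node. The comparison used 3 KO tumor libraries and 4 LN libraries, and a gene entered it when its level reached 1 FPKM (mapped fragments scaled to transcript length and library size) in at least 3 of these 7 libraries. This left 8922 of the 22255 genes in the deposited files. KO tumor libraries came from 8-week-old mice of the strain CD36floxed FoxP3-YFPCre+/-, labelled CD36 KO (Foxp3-YFP+), and the cells had been taken from Yumm1.7 melanoma, a transplantable mouse melanoma line. LN libraries came from 8-week-old FoxP3-YFPCre+/+ mice, labelled WT (Foxp3-YFP+). All 7 libraries therefore share the Cre-YFP allele of Foxp3, which drives the recombinase only where Foxp3 is active, and they differ in tissue, in the floxed Cd36 allele and in the dose of the Cre allele. Genotype and tissue cannot be told apart in this contrast. Levels in 3 libraries from WT (FoxP3-YFPCre+/+) Tregs of the same tumor line (replicates 2, 3 and 4) and 4 from WT spleen are set beside some genes as values, and a separate fit tested KO tumor against WT tumor. The labels do not say whether replicates are separate animals, so the p-values measure the spread between these libraries, which may be technical. Nor do they say which lymph nodes were taken, or whether those mice carried a tumor.

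Tregs are CD4 T cells that hold immune responses in check under the transcription factor Foxp3. They circulate through lymph nodes in a resting state, and in tumors and other tissues they are known to take on an activated effector state, with more costimulatory and inhibitory receptors and other homing receptors. CD36 is a surface receptor that brings long-chain fatty acids and oxidised lipids into cells, and PPAR nuclear receptors sense such lipids and are known to induce genes of fatty acid oxidation and mitochondria.

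Read depth, estimated from the steps between low FPKM values, was 18.4 to 21.5 M reads in LN and 13.6 to 17.2 M reads in KO tumor. Between 8091 and 8307 genes reached 1 FPKM in an LN library and between 8098 and 8247 in a KO tumor library. Across genes, Pearson's r between libraries was 0.834 to 0.846 within LN, 0.810 to 0.823 within KO tumor and 0.753 to 0.781 between the groups. FPKM are shares of a library, so a gain in some genes lowers the shares of others, and in bulk samples fewer cells of a type and less RNA per cell cannot be told apart.

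Cd36, the targeted gene (chr5:17781690-17888801, minus strand, GRCm38), did not separate the genotypes. It was listed at 0 in the 4 LN libraries, at 0 in KO tumor 1 and 3 and at 1.06 FPKM in KO tumor 2. It was also at 0 in the 3 WT tumor libraries, and at 0, 0.598, 4.47 and 2.17 FPKM in spleen 1 to 4. With so little RNA in wild-type cells the transcript gives no check of the deletion in these libraries, and the means of KO tumor and LN differed by 0.35 on the log2(FPKM + 1) scale (exact permutation test over the 35 regroupings, two-sided p = 0.429, smallest possible p 0.0286). A count of 3 reads would be worth 0.041 to 0.065 FPKM of this gene in these 7 libraries, for counting error only.

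Foxp3 (chrX:7573644-7595245), the gene that defines the lineage, was present in all 7 libraries. Its levels were 42.4, 41.7 and 25.7 FPKM in KO tumor 1 to 3 and 32.3, 23.6, 15.4 and 25.4 FPKM in LN 1 to 4, with groups that overlapped. The difference, KO tumor minus LN, was 0.59 ± 0.38 on the log2(FPKM + 1) scale (standard error, adjusted p = 0.475). Here and below, differences, standard errors (after ±) and p-values adjusted by the Benjamini-Hochberg method over the 8922 genes come from limma on that scale, and a gene is called at an adjusted p under 0.05. Other Treg markers were also high in both groups: Il2ra, the high-affinity interleukin-2 receptor chain, stood at 41.8 to 62.2 FPKM in KO tumor and 45.3 to 55.2 in LN, and Ikzf2, which encodes Helios, at 123 to 132 and 97.9 to 125.

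Markers of other cells were higher in KO tumor for several cell types, and their part in the results below was not tested. The summed level of 24 macrophage and monocyte markers was 693 to 838 FPKM in KO tumor and 237 to 357 in LN, with 6 of 14 tested markers called higher and Cd14 at 0 in all 7 libraries; the sum was 611.5 to 1088 in spleen and 321 to 468 in WT tumor. Without KO tumor 1 or 2 only 1 of these markers was called (of 9 and 10 tested), and 2 of 10 without KO tumor 3. C1qc, Csf1r and Fcer1g then fell below the filter, which they passed only through KO tumor. Conventional helper T cell markers summed to 194 to 305 against 14.5 to 51.3 FPKM, with 2 of 5 called (Bhlhe40 and Ifng). Ifng made up most of that sum in KO tumor. CD8 T or NK markers summed to 111 to 194 against 4.09 to 10, with Ncr1 at 0 in all 7. Most of this sum in KO tumor was Tyrobp, which is also on the macrophage and monocyte list. Of the 2 tested CD8 T or NK markers, Tyrobp was called and Cd8b1 was not. B cell markers summed to 1442 to 16101 against 629 to 830 FPKM, a gap carried by immunoglobulin transcripts. Dendritic cell markers gave 153 to 421 against 53.1 to 130 and neutrophil markers 2.77 to 33.6 against 0.0632 to 5.40. Erythroid markers reached 9808 and 16427 FPKM in KO tumor 1 and 2 but 63.3 in KO tumor 3, against 79.0 to 1191 in LN. Fibroblast and endothelial markers gave 4.03 to 17.9 against 5.96 to 15.3, and melanoma markers were under 4 FPKM in sum everywhere, with Mlana, Tyr, Tyrp1, Dct, Sox10 and Gpnmb at 0 in all 7.

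**Figure D1:**
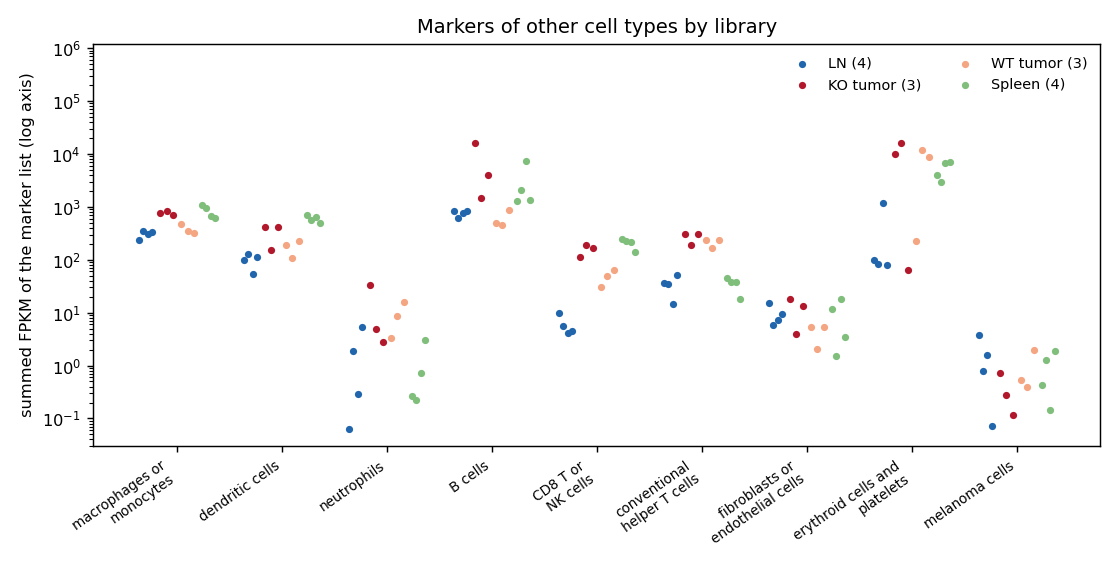
Summed FPKM of each list of other-cell markers (log axis), 1 point per library, for KO tumor, LN, WT tumor and spleen. KO tumor points lie above LN for macrophage or monocyte, B cell, CD8 T or NK and helper T cell markers, and KO tumor 3 lies far below KO tumor 1 and 2 for erythroid markers (63.3 against 9808 and 16427).

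Between the groups, 264 genes were higher in KO tumor (2.96% of those tested) and 180 were lower (2.02%), 444 in all (4.98%). Among protein-coding genes named by size, the largest gain was in the antibody joining chain Jchain, followed by the chemokine Ccl3 and the AP-1 subunit Fos, and the largest loss in the Treg receptor Gpr83. Groups did not overlap for 1573 genes (17.6%), among them 443 of the 444 called. The median difference over all tested genes was -0.01. At an unadjusted p under 0.05, 809 genes were higher and 800 lower. Among the tested genes 98 reached 1 FPKM in no LN library, 52 of which were called higher, and 207 in no KO tumor library, 25 of which were called lower; such genes passed the filter through the group in which they were high. The higher count was 105, 106 and 130 without KO tumor 1, 2 and 3, when those 52 genes no longer pass the filter, and the lower count was 109, 119, 109 and 113 without LN 1, LN 2, KO tumor 1 and KO tumor 2. For a gene listed at 0 in LN the log2 difference depends on the added 1 FPKM and is no bound on the fold.

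**Figure D2:**
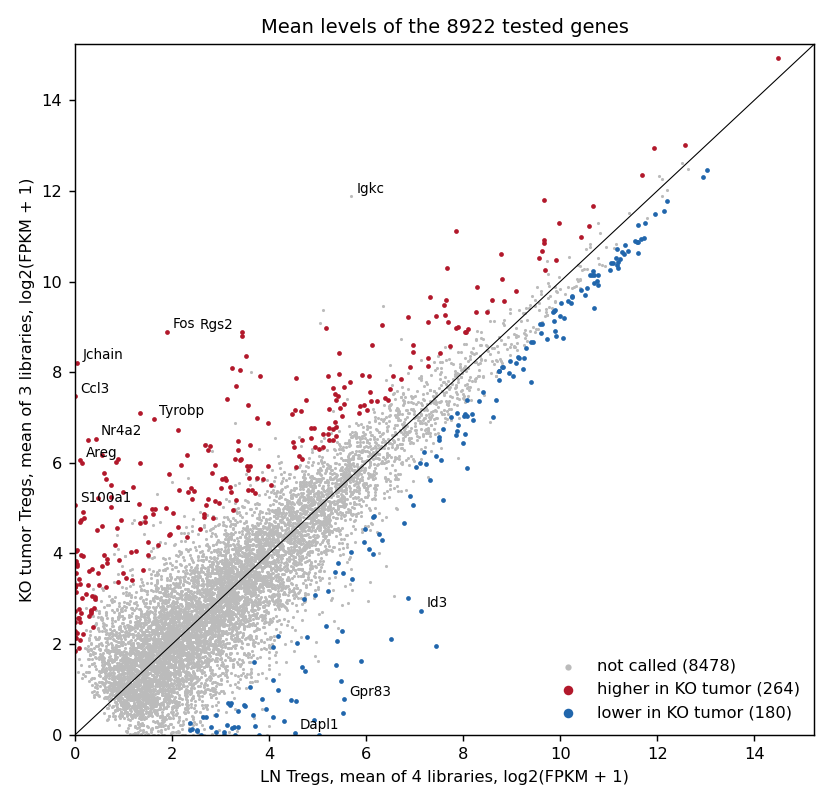
Mean log2(FPKM + 1) of each of the 8922 tested genes in LN (x axis, 4 libraries) and KO tumor (y axis, 3 libraries); the line marks equal levels. Genes called higher (264) are spread over LN levels from 0 upward, and a dense band of the genes called lower (180) lies at high levels in both groups.

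By size, the 12 protein-coding genes that led the higher calls were Jchain, Ccl3, Fos, Fcer1g, Nr4a2, Areg, Rgs2, Tyrobp, Lilrb4a, Il10, Plac8 and S100a1, with log2 differences from 8.17 (Jchain) to 5.06 (S100a1). Of these Jchain, Fcer1g and Tyrobp are markers of B-lineage or myeloid cells and are described with those cells. The 12 that led the lower calls were Gpr83, Dapl1, Id3, Igfbp4, Stambp, Gata1, Pdzk1ip1, Treml2, Rab6b, Ttc27, Ndufaf1 and Wnt10a, from -4.76 (Gpr83) to -3.29 (Wnt10a). S100a1, a calcium-binding protein, was at 19.7, 66.4 and 25.9 FPKM in KO tumor, at 0 in the 4 LN libraries, and at 0, 0 and 0.9 in WT tumor. Plac8 was at 78.7, 42 and 77.4 FPKM in KO tumor against 4.21, 0.773, 0.0331 and 0.0776 in LN (difference 5.17 ± 0.65, adjusted p = 0.00161). Gata1, a transcription factor best known from the red cell lineage, went the other way, at 0.0313, 0.426 and 2.21 FPKM against 27.2, 21.5, 7.99 and 52.1 in LN (-3.81 ± 0.69, adjusted p = 0.0109). No globin gene was called in the 7 libraries, though their differences were positive (3.124 to 4.385). All 4 tested globin genes were called higher without KO tumor 3. Of the 12 higher genes, Jchain, Ccl3, Fcer1g, Nr4a2, Areg and S100a1 passed the filter only through KO tumor. They were not tested with any 1 KO tumor library left out. Calls for 4 of the 12 lower genes were lost with single libraries left out. Igfbp4 was not called without KO tumor 2 (adjusted p = 0.0516). Pdzk1ip1, listed at 0 in the 3 KO tumor libraries, was not called without LN 3 or any 1 KO tumor library (adjusted p up to 0.0629). Wnt10a was not called without LN 1, LN 3 or any 1 KO tumor library (up to 0.0963), and Ndufaf1 not without LN 2, 3 or 4 or KO tumor 1 or 2 (up to 0.12).

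**Figure D3:**
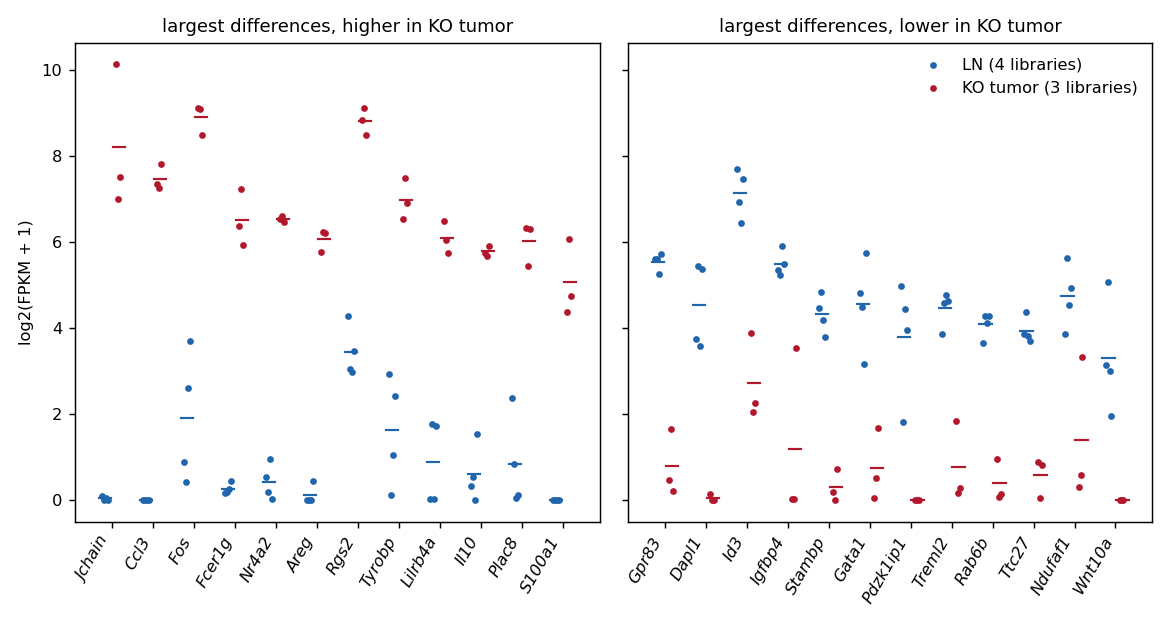
Levels on the log2(FPKM + 1) scale (y axis) of the 12 protein-coding genes with the largest differences in each direction (x axis), 1 point per library for KO tumor (3) and LN (4), with lines at the group means. No KO tumor point overlaps the LN points of the same gene, and Igfbp4 and Ndufaf1 have 1 KO tumor library well above the other two.

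The Treg identity genes split. Of 17 tested, Ctla4 and Tnfrsf18 were called higher, Gpr83 and Izumo1r lower, and 13 were not called (median difference 0.17). Ctla4, the inhibitory receptor that strips costimulatory ligands from antigen-presenting cells, was at 147, 158 and 166 FPKM in KO tumor and 47.1, 55, 34.8 and 48.4 in LN. Its 3 KO tumor values lay above the 4 LN values, a difference of 1.76 ± 0.25 (adjusted p = 0.00301, but 0.125 in the fit of all 14 libraries). WT tumor had 101, 113 and 76.1. Tnfrsf18, the costimulatory receptor GITR, was at 389, 362 and 297 FPKM against 116, 138, 181 and 82.6 (1.47 ± 0.26, adjusted p = 0.01; not called without KO tumor 1, adjusted p = 0.0505). Gpr83, an orphan receptor typical of Tregs, nearly vanished from KO tumor, at 0.382, 2.16 and 0.162 FPKM against 47.4, 47.4, 37.3 and 51.6 in LN (-4.76 ± 0.49, adjusted p = 0.000474). Izumo1r, the folate receptor FR4, was at 101, 142 and 67.3 FPKM against 271, 321, 220.2 and 245 (-1.40 ± 0.27, adjusted p = 0.0141).

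Some costimulatory and checkpoint receptors were higher. Of 18 tested receptors 5 were called higher (Cd28, Icos, Lag3, Tnfrsf4 and Tnfrsf9) and none lower, with a median of 0.71. Tnfrsf9, the costimulatory receptor 4-1BB, was at 293, 227 and 226 FPKM in KO tumor and 44.6, 46.6, 43.2 and 35 in LN, and 305, 312 and 311 in WT tumor. No LN value came near the KO tumor values (2.52 ± 0.23, adjusted p = 0.000271). Icos, a CD28 relative that sustains effector Tregs, was at 1057, 1192 and 943 FPKM against 416, 397, 470.5 and 493 (1.26 ± 0.14, adjusted p = 0.000779). Tnfrsf4, which encodes OX40, stood among the most abundant receptors, at 2137, 2303 and 1463 FPKM against 1064, 1101, 762 and 489 (1.25 ± 0.27, adjusted p = 0.0267). Tigit, an inhibitory receptor, was at 52.8, 56.4 and 40.7 FPKM against LN values that spread from 0.0974 to 31.1 (3.33 ± 0.97, adjusted p = 0.0876), and Pdcd1, which encodes PD-1, overlapped between groups, at 21.6 to 59.4 against 9.15 to 43 (0.67 ± 0.54, adjusted p = 0.592). Icos and Tnfrsf9 were called with each of the 7 libraries left out in turn; the count of 5 fell to 3 without LN 1 or KO tumor 3 and to 2 without LN 3, KO tumor 1 or KO tumor 2.

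Genes of effector and tissue Tregs made up a larger block. Of 28 tested, 13 were called higher and none lower, and the median difference was 1.68. Il10, the suppressive cytokine, was at 52.6, 50.1 and 59.3 FPKM in KO tumor and 0.251, 0.452, 0 and 1.87 in LN (5.18 ± 0.53, adjusted p = 0.000483). Areg, a growth factor for epithelium with which tissue Tregs are known to aid repair, was at 53.3, 73.5 and 72.3 FPKM against 0, 0, 0 and 0.359 (5.95 ± 0.48, adjusted p = 0.000128), and WT tumor had 102, 35.8 and 83.1. LN cells thus held next to no RNA of either gene. Id2, which represses E-protein transcription factors in effector T cells, was at 689, 553 and 389 FPKM against 78, 83.8, 72.1 and 83.1 (2.73 ± 0.22, adjusted p = 0.000128). Calcium-binding S100a4 was at 602, 477 and 573 FPKM against 139, 168, 138 and 177 (1.82 ± 0.18, adjusted p = 0.000351). Lgals1, S100a6, Nfil3, Rora and the inhibitory receptor Lilrb4a were called as well, and all of these except Areg were called with each library left out in turn; Areg fell below the filter when a KO tumor library was left out. Ccr8, a receptor of tumor Tregs, did not pass: it reached 43.1 FPKM in KO tumor 1 but 6.02 and 10.1 in KO tumor 2 and 3, against 0 to 9.83 in LN (2.29 ± 0.88, adjusted p = 0.201). Batf, a transcription factor of effector Tregs, overlapped between groups (0.51 ± 0.69, adjusted p = 0.783).

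Several genes of resting, recirculating T cells were lower. Of 20 tested, 7 were called lower, among them Bcl2, Dapl1, Id3, Igfbp4, Tcf7 and Treml2, and none higher, with a median of -1.22. Id3, an E-protein inhibitor of resting Tregs, was at 13.8, 3.12 and 3.78 FPKM in KO tumor and 205, 120.4, 85.7 and 175 in LN (-4.40 ± 0.50, adjusted p = 0.000913). Its relative Id2 moved in the opposite direction. Tcf7, which encodes the transcription factor TCF1, was at 35, 24.7 and 39.5 FPKM against 133, 132, 102 and 132 (-1.90 ± 0.27, adjusted p = 0.0029), with WT tumor between the groups at 71.9, 94.4 and 50.8. Dapl1 was listed at 0.104, 0 and 0 FPKM in KO tumor against 12.3, 42, 10.9 and 40.2 in LN (-4.48 ± 0.63, adjusted p = 0.0029). Ccr7, a lymph node homing receptor, overlapped, at 21.9 to 93.1 FPKM against 55.1 to 146 (-0.86 ± 0.49, adjusted p = 0.414), and Klf2, a regulator of T cell recirculation, stood at 353 to 539 against 293 to 439 (0.38 ± 0.20, adjusted p = 0.366).

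**Figure D4:**
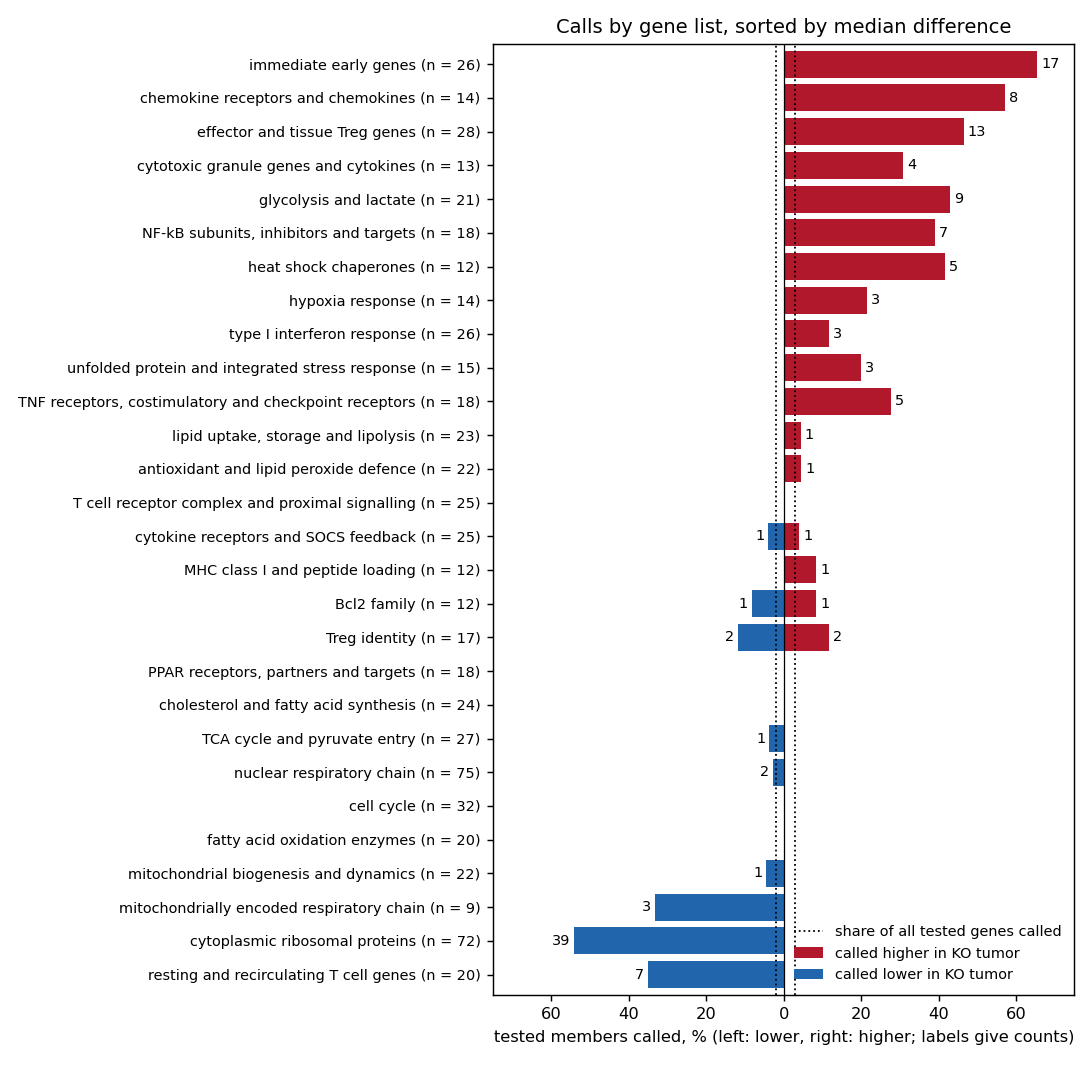
Numbers of tested genes called higher (right) and lower (left) in each gene list, as a percentage of its tested members, with the share over all tested genes (2.96% higher, 2.02% lower) for comparison. Immediate early genes (17 of 26) and chemokines and their receptors (8 of 14) have the largest shares called higher, and ribosomal proteins (39 of 72) the largest share called lower.

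Several chemokines and chemokine receptors were higher in KO tumor. Of 14 tested, 8 were called higher and none lower (median 3.03). Ccl3, a chemokine that attracts myeloid cells and T cells, was at 161, 151 and 224 FPKM in KO tumor, listed at 0 in the 4 LN libraries, and at 7.66, 99.4 and 31.8 in WT tumor (7.47 ± 0.44 against LN, adjusted p = 3.28e-05). Ccl5 was the most abundant of the group, at 2170, 2474 and 1985 FPKM against 499.8, 103, 312 and 169.6 (3.26 ± 0.43, adjusted p = 0.00203). Every LN library thus had Ccl5 above 0 and none had Ccl3. Cxcr6, a receptor of tissue-resident T cells, was at 70.1, 122 and 82 FPKM against 11.8, 9.87, 3.71 and 16 (3.13 ± 0.48, adjusted p = 0.0043). Ccl1, Ccl4, Ccr2, Cxcr3 and Cxcr4 were also called. Ccl5 and Cxcr6 kept their calls with each library left out; the count of 8 was 2 without KO tumor 1 and 3 without KO tumor 2 or 3, partly because Ccl3 and Ccl4 then fell below the filter.

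Cytokine receptors and their feedback regulators had few calls, but many members had groups that did not overlap. Of 25 tested, Ifngr1 alone was called higher and Tgfbr1 alone lower (4% each, against 2.96% and 2.02% of all tested genes, median 0.32). Groups did not overlap for 13 of 25, against 17.6% of all tested genes. At an unadjusted p under 0.05 there were 6 higher and 4 lower, against 809 and 800 of all 8922 genes. Ifngr1, the ligand-binding chain of the interferon gamma receptor, was at 677, 555 and 570.4 FPKM in KO tumor and 101, 134, 113 and 115 in LN (2.37 ± 0.18, adjusted p = 0.000112); WT tumor had 714, 907 and 943. Its ligand gene Ifng was higher too, at 236, 108 and 191 FPKM against 13.9, 7.16, 1 and 23.8 (4.28 ± 0.74, adjusted p = 0.00846), with 166, 42.5 and 156 in WT tumor. Tgfbr1, the type I receptor of TGF-beta, was at 5.83, 24.4 and 8.42 FPKM against 38.9, 50.1, 50.6 and 41.9 (-1.97 ± 0.47, adjusted p = 0.0397), a call kept only without KO tumor 2 (adjusted p 0.0131 to 0.121 with 1 library left out). Il6ra, a receptor of naive T cells, missed the threshold without overlap between groups, at 6.25 to 9.12 FPKM against 21.7 to 24.9 (-1.47 ± 0.38, adjusted p = 0.0547).

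The cytotoxic granule and cytokine genes gave 4 higher calls among 13 tested, Ifng, Il10, Nkg7 and Srgn, and none lower (median 1.67). Nkg7, a granule membrane protein of cytotoxic cells, was at 1910, 1139 and 907 FPKM in KO tumor against 330.1, 158, 191 and 166 in LN (2.63 ± 0.30, adjusted p = 0.000922). Srgn, the granule proteoglycan serglycin, was at 1535 to 2051 FPKM against 742 to 941 (1.19 ± 0.14, adjusted p = 0.00102). These 4 genes were called with each library left out. Gzmb, the granule protease granzyme B, overlapped, at 7.56, 19 and 2.14 FPKM against 0.0328 to 8.64 (1.68 ± 0.88, adjusted p = 0.364). Ifng, Bhlhe40 and Nkg7 are also made by helper, CD8 T and NK cells, whose summed markers are given above and whose part in these values was not tested. Ifng and Bhlhe40 are themselves on the helper T cell list, so its sum is no separate measure for them.

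Immediate early genes, which are switched on within minutes of stimulation or tissue handling and need no new protein synthesis, had the largest share of higher calls among the lists. Of 26 tested, 17 were called higher and none lower, and the median was 3.08. Groups did not overlap for 23 of them, against 17.6% of all tested genes. Summed over the 28 listed genes the level was 2837, 2796 and 2557 FPKM in KO tumor 1 to 3 against 311 to 488 in LN. Fos, a subunit of the transcription factor AP-1, was at 554, 542 and 355 FPKM against 0.846, 0.328, 5.07 and 11.9 (7.0 ± 0.71, adjusted p = 0.000474), while WT tumor had 810.1, 615 and 485 and spleen 2.16 to 7.11. Both tumor groups were high and both lymphoid organs low. Dusp1, the phosphatase that shuts down MAP kinases, was at 307, 221 and 298 FPKM against 4.72, 12.7, 6.31 and 12.9 (4.86 ± 0.39, adjusted p = 0.000128). Nr4a2, an orphan nuclear receptor induced by antigen receptor signals, was at 91.3, 96.6 and 86.4 FPKM against 0.0146 to 0.944 (6.11 ± 0.47, adjusted p = 0.000117), and Rgs2, a brake on G protein signalling, at 455, 547 and 356 against 6.87 to 18.3 (5.36 ± 0.37, adjusted p = 6.96e-05). Jun, Junb, Jund, Klf6, Zfp36 and Cd69 were called too. Between 12 and 18 members were called with 1 library left out, the fewest (12 of 22 tested) without any 1 KO tumor library. Atf3, Fosb, Klf4 and Nr4a2 then fell below the filter, which they passed only through KO tumor. Atf3 was also not called without any 1 LN library (limma, adjusted p 0.0526 to 0.0597). The sources used here give no details of how tumors and lymph nodes were dissociated, so tissue and handling cannot be told apart. Myc was low and overlapping (0.332 to 2.74 against 0.666 to 8.57 FPKM).

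Promoters of immediate early genes were searched for the full cyclic AMP response element TGACGTCA, the palindrome bound by CREB and ATF factors and known from immediate early genes. The windows, from RefSeq on GRCm38.p6, ran from 250 bases before to 50 after a start site. The element was in 2 of the 21 immediate early genes with a window (Btg2 and Dusp1), and in 1 of the 15 called higher (Dusp1), against 256 of 6441 tested genes (3.97%) and 1.79% of all 32851 promoters. The windows of Dusp1 (chr17:26508473-26508722, minus strand) and of the repair factor Areg (chr5:91139349-91139598, plus strand) held it, and their 250 bases before the start site are shown with the element in capitals.
Dusp1: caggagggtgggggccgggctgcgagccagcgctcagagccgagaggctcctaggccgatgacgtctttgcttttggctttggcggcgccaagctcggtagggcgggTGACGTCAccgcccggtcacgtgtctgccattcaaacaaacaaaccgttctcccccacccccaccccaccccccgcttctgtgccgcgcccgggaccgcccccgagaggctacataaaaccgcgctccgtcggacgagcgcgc
Areg: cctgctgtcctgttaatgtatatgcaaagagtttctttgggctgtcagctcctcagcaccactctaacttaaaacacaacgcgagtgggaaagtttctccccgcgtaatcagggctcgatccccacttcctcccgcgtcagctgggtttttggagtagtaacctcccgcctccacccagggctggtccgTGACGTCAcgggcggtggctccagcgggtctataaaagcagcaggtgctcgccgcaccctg

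Some NF-kB genes and heat shock chaperones, which are also known to respond to stimulation and stress, were called higher. Of 18 NF-kB subunits, inhibitors and targets 7 were called higher and none lower (median 1.35), and of 12 chaperones 5 and none (median 1.26). The calls included feedback inhibitors of the pathway. Tnfaip3, the ubiquitin-editing inhibitor A20, was at 13.9, 43 and 17.8 FPKM in KO tumor against 0.0408, 0.387, 1.07 and 0.19 in LN (4.07 ± 0.60, adjusted p = 0.0034), and Nfkbia, which encodes IkB-alpha, at 188, 209 and 271 against 35.9, 38.9, 81.2 and 54.5 (2.12 ± 0.31, adjusted p = 0.00365). The subunit gene Nfkb1 overlapped, at 54.3 to 76.2 FPKM against 44 to 68.4 (0.24 ± 0.28, adjusted p = 0.732). Among chaperones, Hsp90aa1, the inducible HSP90, was at 891, 827 and 723 FPKM against 152, 158, 144 and 188 (2.34 ± 0.16, adjusted p = 6.96e-05), and WT tumor had 1399, 1811 and 1196. Its constitutive relative Hsp90ab1 differed less, at 510.4, 461 and 536 FPKM against 263, 297, 255 and 137 (1.13 ± 0.25, adjusted p = 0.0302). The NF-kB count was 4 without LN 2, KO tumor 2 or KO tumor 3. The chaperone count was 1 without LN 1 or KO tumor 1, 2 without KO tumor 2 or 3 and 3 without LN 4, and Hsp90aa1 was called each time.

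Several glycolytic genes were higher in KO tumor, and enzymes that burn fatty acids were not called in either direction. Of 21 genes of glycolysis and lactate handling, 9 were called higher (Aldoa, Aldoc, Gpi1, Hk2, Ldha, Pgk1, Pkm, Slc16a3 and Tpi1) and none lower, with a median of 1.35. Their summed level was 3439, 3300 and 2780 FPKM in KO tumor 1 to 3 and 1079, 1187, 1146 and 1020 in LN 1 to 4. Tpi1, triose phosphate isomerase, had the largest difference, at 682, 421 and 438 FPKM against 27.8, 25.8, 44.8 and 46.4 (3.80 ± 0.30, adjusted p = 0.000117). Pkm, pyruvate kinase, was at 667, 649 and 499.8 FPKM against 162, 168, 169.9 and 186 (1.80 ± 0.17, adjusted p = 0.000271). Pgk1, the first of the pathway's ATP-forming enzymes, was at 236, 253 and 238 FPKM against 46.7, 56.6, 53.5 and 85.3 (2.02 ± 0.25, adjusted p = 0.00152). At the end of the pathway Ldha, which turns pyruvate into lactate, was at 974, 814 and 586 FPKM against 327, 412, 429.6 and 385 (1.0 ± 0.19, adjusted p = 0.013; not called without KO tumor 1 or 2, adjusted p up to 0.0585). The lactate exporter gene Slc16a3 was at 10.8, 11.4 and 14.4 FPKM against 0.0123 to 2.23 (3.16 ± 0.60, adjusted p = 0.0141; not called without KO tumor 3, 0.0525). Ldhb, the isoenzyme that favours the reverse reaction, was at 0.274, 46.6 and 36.5 FPKM against 67.5 to 106 and was not called (-2.68 ± 1.03, adjusted p = 0.2). The glucose transporter genes Slc2a1 and Slc2a3 overlapped between groups. Aldoa, Pgk1, Pkm and Tpi1 were called with each library left out, and the count of 9 was 5 without KO tumor 1 or 2. Gapdh, at 19.6 to 42.4 FPKM against 4.32 to 11.2 (adjusted p = 0.0903), has many near-identical pseudogene copies, so its level is uncertain.

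Hypoxia genes had fewer calls. All 14 tested had a positive difference (median 1.25), and 3 were called higher: Hif1a, Ankrd37 and Aldoc, the last also in the glycolysis list. Hif1a, the oxygen-regulated subunit of the hypoxia-inducible factor, was at 166, 117 and 156 FPKM in KO tumor and 48.8, 24, 36.7 and 41.6 in LN (1.95 ± 0.31, adjusted p = 0.00484), with 152, 138 and 159 in WT tumor. Ankrd37, a HIF target, was at 9.38, 6.92 and 5.21 FPKM against 0, 0.16, 0.1 and 1.41 (2.59 ± 0.56, adjusted p = 0.0269). In contrast to Hif1a, Ankrd37 stood near 0 in WT tumor, at 0.201, 0.161 and 0 FPKM. The count of 3 was 1 without LN 1, LN 2, KO tumor 1 or KO tumor 2, and Hif1a was called each time. Ankrd37 was kept only without LN 4 (adjusted p 0.0236 to 0.0816 with 1 library left out).

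The core of the hypoxia response element, ACGTG, was searched on both strands of the same promoter windows; it lies within the E-box CACGTG, which matches on both strands and counts at overlapping positions. It was in 14 of the 22 glycolysis genes with a window (63.6%), in 7 of the 9 called higher, and in 13 of 17 hypoxia genes, the 3 called included. Of 21 immediate early genes 9 held it (42.9%), with 6 of the 15 called higher among them. The core was in 6 of 25 genes of the TCA cycle and in 1 of 19 of fatty acid oxidation. Over the 6441 tested genes it was in 1971 (30.6%), and in 19.6% of all promoters. A match is a run of letters, not a measured binding site. The 250 bases before the start site are shown for 4 genes called higher, with ACGTG or its reverse complement in capitals: Ankrd37 (chr8:45999851-46000100, minus strand), Pgk1 (chrX:106186850-106187099, plus strand), Ldha (chr7:46845554-46845803, plus strand) and Aldoa (chr7:126799255-126799504, minus strand). Ldha held 2 E-boxes and 5 matching positions, Ankrd37 and Pgk1 2 each, and Aldoa 1.
Ankrd37: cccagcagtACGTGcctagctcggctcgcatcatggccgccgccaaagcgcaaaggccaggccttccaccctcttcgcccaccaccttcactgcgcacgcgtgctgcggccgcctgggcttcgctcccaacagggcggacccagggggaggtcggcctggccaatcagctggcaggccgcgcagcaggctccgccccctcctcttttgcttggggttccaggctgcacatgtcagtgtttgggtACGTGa
Pgk1: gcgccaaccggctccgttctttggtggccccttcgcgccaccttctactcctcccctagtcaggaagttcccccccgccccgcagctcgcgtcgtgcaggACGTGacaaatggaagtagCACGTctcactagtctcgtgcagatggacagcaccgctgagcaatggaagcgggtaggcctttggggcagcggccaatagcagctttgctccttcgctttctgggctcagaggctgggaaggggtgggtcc
Ldha: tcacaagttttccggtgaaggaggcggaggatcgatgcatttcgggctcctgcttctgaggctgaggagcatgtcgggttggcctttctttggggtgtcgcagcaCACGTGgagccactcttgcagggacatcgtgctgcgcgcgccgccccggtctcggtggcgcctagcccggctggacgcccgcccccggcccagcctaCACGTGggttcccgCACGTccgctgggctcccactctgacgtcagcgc
Aldoa: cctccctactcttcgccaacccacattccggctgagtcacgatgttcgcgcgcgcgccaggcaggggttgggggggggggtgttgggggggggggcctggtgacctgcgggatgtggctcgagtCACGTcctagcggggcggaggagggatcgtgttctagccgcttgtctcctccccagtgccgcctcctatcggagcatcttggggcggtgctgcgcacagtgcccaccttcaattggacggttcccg

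Genes of lipid handling, the process in which CD36 acts, had 1 call among 23 tested. Their summed level was higher, with the largest part of the gap from Dgat1. The sum over 32 listed genes was 731, 567.8 and 611.4 FPKM in KO tumor and 318.4, 286.5, 315.2 and 261 in LN. Groups did not overlap for 7 of 23 tested members, against 17.6% of all genes. Of these 23 tested genes of lipid uptake, storage and lipolysis, Dgat1 alone was called, in the higher direction (4.35% against 2.96% of all tested genes, median 0.56). Dgat1, which makes triglyceride for lipid droplets, was at 218, 184 and 222 FPKM in KO tumor against 19.1, 1.96, 7.26 and 18.9 in LN (4.39 ± 0.61, adjusted p = 0.00278), and it was as high in WT tumor, at 155, 319.5 and 131. It kept its call with each library left out. Lipe, hormone-sensitive lipase, was at 34.1, 27.3 and 25.4 FPKM against 7.32, 7.04, 16.8 and 8.01 without passing the test (1.54 ± 0.43, adjusted p = 0.0768). Npc2, which moves cholesterol out of lysosomes, was at 174 to 235 FPKM against 102 to 139 (0.76 ± 0.21, adjusted p = 0.0765). Fabp5, a fatty acid carrier, overlapped widely, at 4.41 to 65.2 FPKM against 9.46 to 50.1, and Fabp4 was listed at 0 in all 7 libraries. Without KO tumor 3 the list had 2 calls.

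Targets and partners of PPAR receptors, fatty acid oxidation enzymes and genes of cholesterol and fatty acid synthesis had no call by limma in the 7 libraries or in any of the 16 alternative settings. With 2.96% of all tested genes called higher and 2.02% lower, lists of 18, 20 and 24 genes would hold few calls at those shares. Of 18 PPAR genes 1 was higher and none lower at an unadjusted p under 0.05 (median 0.06). Of 20 oxidation enzymes 2 were higher and 3 lower at that level (median -0.40), and of 24 synthesis genes none higher and 2 lower (median -0.03). Summed levels of the oxidation enzymes overlapped, at 439, 426 and 353 FPKM in KO tumor against 338, 459, 439 and 485 in LN. Cpt1a, the enzyme that admits long-chain fatty acids to mitochondria, was at 20.1, 2.18 and 4.32 FPKM against 34.3, 8.73, 10.5 and 25.9 (-1.35 ± 0.72, adjusted p = 0.38). The acylcarnitine carrier gene Slc25a20 leaned the other way, at 5.71, 21.1 and 4.77 FPKM against 0.447 to 2.87 (2.2 ± 0.67, adjusted p = 0.1). Acadm, medium-chain acyl-CoA dehydrogenase, was at 0.32, 1.41 and 0.797 FPKM against 3.5 to 11.8 (-1.97 ± 0.59, adjusted p = 0.095). The standard errors of these single enzymes were 0.59 to 0.72, so differences of this size could not be told from 0. Of the receptors themselves, Pparg was listed at 0 in all 7 libraries, Ppara at 0.118 FPKM in KO tumor 1 and 0 elsewhere, and Ppard at 0.0185, 0.39 and 1.68 in KO tumor and 0.0146 to 0.559 in LN, under the filter.

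**Figure D5:**
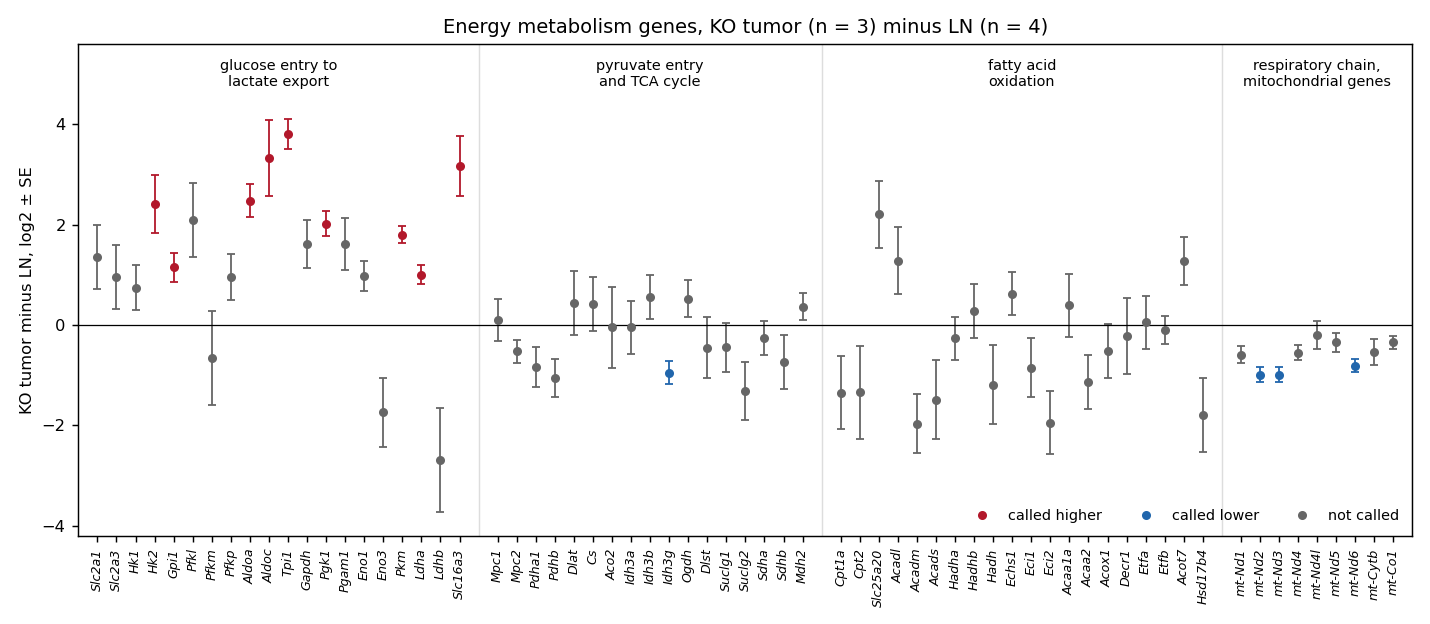
Difference KO tumor minus LN on the log2(FPKM + 1) scale (y axis; points, with bars for the standard error) of genes of energy metabolism (x axis), in the order of the pathways and coloured by call. The 9 genes called higher are all in the glycolysis panel, no fatty acid oxidation enzyme is called, and the genes called lower are Idh3g, mt-Nd2, mt-Nd3 and mt-Nd6.

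Among respiratory chain genes all calls were in the lower direction. Of 9 tested mitochondrially encoded respiratory chain genes mt-Nd2, mt-Nd3 and mt-Nd6, all subunits of complex I, were called lower, none higher, and all 9 differences were negative (median -0.55). The called share was 33.3%, against 2.02% of all tested genes called lower. Groups did not overlap for 5 of the 9, against 17.6% of all tested genes. mt-Nd2 was at 479.6, 436 and 532 FPKM in KO tumor and 794, 978, 900.4 and 1192 in LN (-0.99 ± 0.16, adjusted p = 0.00485). mt-Nd3 was at 456, 423 and 406 FPKM against 872, 740.4, 749.6 and 1078 (-0.99 ± 0.15, adjusted p = 0.00485), and mt-Nd6 at 1662, 1184 and 1166 against 2239, 2382, 2054 and 2608 (-0.81 ± 0.14, adjusted p = 0.00846). The ratio of the KO tumor mean to the LN mean was 0.499 for mt-Nd2 and 0.498 for mt-Nd3, and WT tumor lay at 514 to 657 for mt-Nd2. These 3 calls held with each library left out. mt-Atp6, mt-Atp8 and mt-Co2 were listed at 0 in all 7 libraries and mt-Co3 at 0.208 FPKM or less; every cell uses these genes, so the listed zeros may be failed estimates.

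Nuclear genes of the same complexes showed less. Of 75 tested, Ndufa3 and Ndufv2, again complex I subunits, were called lower and none higher (median -0.13), near the 2.02% of all genes. Ndufa3 was at 372, 382 and 464 FPKM in KO tumor against 609.5, 649, 633 and 834 in LN (-0.74 ± 0.16, adjusted p = 0.023), and WT tumor had 659, 852 and 775. Ndufv2 was at 89.3, 63.8 and 42.8 FPKM against 161, 133, 136 and 123 (-1.13 ± 0.28, adjusted p = 0.0469). Of 27 TCA cycle genes Idh3g, a subunit of NAD-dependent isocitrate dehydrogenase, was called lower, at 60.9, 88.9 and 75.3 FPKM against 146, 129, 136 and 171 (-0.95 ± 0.23, adjusted p = 0.043), and its call was lost without any 1 of the 7 libraries (adjusted p 0.0632 to 0.136). Of 22 biogenesis and dynamics genes Tfb1m, a mitochondrial rRNA methyltransferase, was called lower, at 0, 0.111 and 0 FPKM against 3.08, 7.52, 24.3 and 4.76 (-3.03 ± 0.69, adjusted p = 0.0342; lost without LN 2 or any 1 KO tumor library). The nuclear count of 2 was 0 without LN 2 or KO tumor 2 and 1 otherwise.

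Many cytoplasmic ribosomal protein genes were lower. Of 72 tested, 39 were called lower and none higher (54.2% against 2.02% of all genes), 1 of 72 had a positive difference, and the median was -0.57. Their summed level was 83385, 81495 and 80055 FPKM in KO tumor 1 to 3 and 120111, 121792, 117488 and 113608 in LN 1 to 4. The differences were small for single genes. Rps29 was at 1265, 1272 and 1253 FPKM against 2312, 2285, 2318 and 2421 (-0.88 ± 0.08, adjusted p = 0.000271), and Rpl32 at 1895, 1805 and 1960 against 3115, 3182, 3078 and 3020 (-0.72 ± 0.08, adjusted p = 0.000617). The groups of both genes lay far apart relative to their spread, and spleen had 1538 to 2318 FPKM of Rps29 and 1996 to 2758 of Rpl32. Of the 39 calls 23 held with each library left out in turn, and the count was 25 without KO tumor 2. Ribosomal protein genes have many near-identical pseudogenes between which the authors' counting could split reads; of 352 tested processed pseudogenes 27 were called lower and 4 higher.

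Genes of survival, stress and interferon responses gave some calls. Over all tested genes 2.96% were called higher and 2.02% lower. Of 12 tested Bcl2 family genes 1 was called in each direction (8.33%), and of 22 antioxidant genes 1 was called higher (4.55%). Bcl2, which blocks mitochondrial apoptosis, was at 9.08, 14.5 and 7.32 FPKM in KO tumor and 48.4, 59.6, 50.1 and 49.1 in LN (-2.27 ± 0.35, adjusted p = 0.00472), and WT tumor had 6.28, 13.6 and 6.08. Pmaip1, which encodes the pro-apoptotic protein NOXA, was at 11, 5.52 and 20.3 FPKM against 0.0355, 0, 0 and 0 (3.56 ± 0.57, adjusted p = 0.00538). The remaining 10 tested genes of the Bcl2 family were not called, Mcl1 among them (83 to 114 FPKM against 101 to 126). Of 22 antioxidant genes Fth1, the ferritin heavy chain that stores iron, was the single call, at 3773, 3393 and 2697 FPKM against 1680, 1738, 1757 and 1403 (0.99 ± 0.13, adjusted p = 0.00194). Bcl2 and Fth1 were called with each library left out, and Pmaip1 fell below the filter without any 1 KO tumor library.

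Atf4, the transcription factor of the integrated stress response, was at 133, 62.6 and 86.1 FPKM in KO tumor against 27.9, 21.6, 21.8 and 27.9 in LN (1.82 ± 0.33, adjusted p = 0.0118; not called without KO tumor 1, 0.0594). Hspa5 and Ppp1r15a completed the 3 higher calls among 15 unfolded protein and stress genes (20% against 2.96% of all tested genes, median 0.72). The count was 1 without KO tumor 1 or 2. Of 26 type I interferon response genes Isg20, Mx2 and Rsad2 were called higher (11.5%, median 0.80). Mx2, an antiviral GTPase, was at 11.4, 4.11 and 9.21 FPKM against 0.135 to 0.204 (2.88 ± 0.54, adjusted p = 0.0131). The interferon count was 1 without LN 2 or 3 and 0 without KO tumor 1 or 2. Mx2 fell below the filter without any 1 KO tumor library. Of 12 genes of MHC class I and peptide loading 1 was called higher (8.33%). This was B2m, the light chain, at 2741, 2038 and 2419 FPKM against 1400, 1639, 1301 and 1878 (0.63 ± 0.14, adjusted p = 0.0352). B2m lost its call without LN 1, LN 2, LN 3, KO tumor 1 or KO tumor 3 (adjusted p up to 0.131).

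Cell cycle and T cell receptor genes had no call by limma in the 7 libraries or in the 16 alternative settings. Over all tested genes 2.96% were called higher and 2.02% lower, so lists of 32 and 25 genes would hold few calls at those shares. Of 32 cell cycle genes none was higher and 2 were lower at an unadjusted p under 0.05 (median -0.28). Mki67, which marks dividing cells, was at 16.7, 13.2 and 25.5 FPKM in KO tumor against 4.79 to 17.9 in LN (0.69 ± 0.50, adjusted p = 0.55). Of 25 genes of the receptor complex and its proximal signalling 6 were higher and 3 lower at that level (median 0.35), against 809 and 800 of all 8922 genes. Groups did not overlap for 10 of these 25, against 17.6% of all tested genes. Cd3e was at 111, 82.4 and 91 FPKM against 46.7 to 67.3 (0.71 ± 0.26, adjusted p = 0.172), and Prkcq, a kinase that links the receptor to NF-kB, at 9.43, 13.9 and 25.3 against 27.9 to 68.9 (-1.53 ± 0.44, adjusted p = 0.0851).

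Some of the genes that led the higher calls are markers of myeloid or B-lineage cells. Jchain, the joining chain of secreted antibodies, was at 1113, 126 and 180.4 FPKM in KO tumor against 0.0674, 0, 0.0334 and 0 in LN (8.17 ± 0.69, adjusted p = 0.000174). The light chain gene Igkc was at 14662, 1031 and 3560 FPKM against 112, 2.32, 171 and 110.2 (6.19 ± 1.57, adjusted p = 0.0863), while Ighm, the heavy chain of resting B cells, was lower in KO tumor, at 305, 265 and 236 against 639, 569, 556 and 654 (-1.17 ± 0.15, adjusted p = 0.00173). Tyrobp, a signalling adaptor of myeloid and NK cells, was at 91.8, 177 and 118 FPKM against 6.57, 0.0876, 1.07 and 4.35 (5.34 ± 0.67, adjusted p = 0.00156), and its partner Fcer1g at 81.2, 149.9 and 59.4 against 0.126 to 0.364 (6.24 ± 0.50, adjusted p = 0.000128). Spleen, also labelled Foxp3-YFP+, had 131 to 216 FPKM of Tyrobp and 45.8 to 228 of Fcer1g. H2-Eb1, an MHC class II chain of antigen-presenting cells, was at 93.5, 8.72 and 59.2 FPKM against 0.119 to 2.99 (4.50 ± 0.83, adjusted p = 0.0123; not called without KO tumor 1 or 3, up to 0.0613). Lyz2, an abundant transcript of macrophages, was at 6.21, 0 and 0.368 FPKM in KO tumor and 0.0741 to 17.7 in LN.

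The fit of all 14 libraries set KO tumor against WT tumor directly; the 2 comparisons share the KO tumor libraries. It called 60 of 10147 genes (0.591%), and 5 of the 120 genes named by the rule and tested in it. Jchain was higher in KO tumor, by 7.15 ± 1.24 over WT tumor values of 0.535, 2.14 and 0.847 FPKM (adjusted p = 0.0111). Tyrobp was higher by 5.08 ± 0.70 over 6.11, 3.83 and 0.492 FPKM (adjusted p = 0.00262), S100a1 by 4.75 ± 0.71 (adjusted p = 0.00462) and Ankrd37 by 2.84 ± 0.47 (adjusted p = 0.00895). Ndufa3 was lower (-0.91 ± 0.17, adjusted p = 0.0185). For the other 115 named genes the 2 tumor groups did not differ past the threshold with 3 libraries each, which does not show that their levels are equal: Foxp3, for one, was at 12, 3.54 and 12 FPKM in WT tumor (KO tumor minus WT tumor 2.01 ± 0.54, adjusted p = 0.153), and Hsp90aa1 was lower in KO tumor by a margin just short of the threshold (-0.84 ± 0.18, adjusted p = 0.0517). Pkm (0.02 ± 0.20, adjusted p = 0.991), Hif1a (-0.05 ± 0.36, adjusted p = 0.99) and Dgat1 (0.15 ± 0.61, adjusted p = 0.974) had small differences against their standard errors. Outside the genes chosen by rule, Klf2 was lower in KO tumor than in WT tumor, where it was at 1213, 971 and 1056 FPKM (-1.31 ± 0.27, adjusted p = 0.0331).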

How the data were processed

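Low-input total RNA of Foxp3-YFP+ cells was sequenced with the Smart-Seq2 protocol, per the labels' protocols. The deposited values are FPKM per gene, made by the authors with tools that the submitters' processing notes name without their order: Trimmomatic, TopHat2 2.1.1, Bowtie2 2.2.9, Cufflinks 2.2.1, Cuffdiff and DESeq2, on mm10 (GRCm38). Of 22255 gene IDs 22201 matched a GENCODE M21 symbol. Depth was estimated from the steps of low FPKM values.

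Log2(FPKM + 1) of 7 libraries was fitted with robust, trended limma 3.58.1 (R 4.3.3), with Benjamini-Hochberg adjustment over the 8922 genes that reached 1 FPKM in 3 libraries. KO and WT tumor were compared in a fit of all 14 libraries. Python 3.11.15 (numpy 2.4.6, pandas 2.3.3) made summaries, and the fit was tested on simulated data. Named by rule were Cd36, Foxp3, the 12 largest called protein-coding genes in each direction with a mean of at least 10 FPKM in the higher group and no overlap (predicted genes and receptor segments left out), the 3 smallest p of each of 28 biology lists and the 4 highest levels of each of 9 other-cell lists. Some items that the rule names are not reported here. Further list members were named after their values were seen. Lists and comparison were chosen with earlier results of these data known. Alternatives were another pseudocount, filter, scaling, weighting, fit or replicate block, and leaving out each library.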

Additional observations from a re-analysis of the deposited data

Results flagged for a closer look

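Among 101 sets of 4 LN values tested for a single value far from the other three (Dixon's test on the log2 scale), 6 were found; chance alone gives about 1 in 20. Tcf7 was lowest in LN 3, at 101.5 FPKM, and Lipe highest there, at 16.81 FPKM. Bcl2 was highest in LN 2, at 59.63 FPKM. Igkc stood apart in LN 2, at 2.32 FPKM. The globin gene Hba-a2 was highest in LN 3, at 322.8 FPKM, and so was the summed level of the erythroid markers, at 1191 FPKM. Tcf7 and Bcl2 were called with each library left out in turn.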

How the results depend on the processing

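As reported, 264 genes were called higher and 180 lower. With 1 library left out there were 105 to 222 higher and 109 to 140 lower calls. Without a filter on low values, over 15048 genes, 138 were called higher and 97 lower. With a replicate block there were 152 higher and 98 lower calls, of which 142 and 92 were among the calls reported; same-numbered KO tumor and LN libraries did not deviate together (r of -0.0143, 0.0279 and -0.0241 across genes), so the numbers do not pair the libraries. A pseudocount of 0.1 gave 223 and 177 calls, a filter at 5 FPKM 234 and 174, scaling to protein-coding genes 256 and 188, median ratio scaling 253 and 186, the fit of all 14 libraries 214 and 133, array weights 239 and 171, and the fit without robust variances 268 and 182. Of 76 named genes called, 55 kept their call without a filter, 60 with the replicate block, 66 in the fit of all 14 libraries and at least 72 in each other setting that kept all 7 libraries (72 of the 73 tested at 5 FPKM). Those lost in the fit of all 14 libraries were Gata1, Ctla4, Tgfbr1, Aldoc, Idh3g, Ndufv2, Tfb1m, Hspa5, Isg20 and B2m. Without a filter the calls were 2 of 18 costimulatory and checkpoint receptors, 4 of 14 chemokine genes, 1 of 12 chaperones and 5 of 21 glycolytic genes, and with the replicate block 5 chemokine genes, 2 chaperones, 4 of 18 NF-kB genes, 4 glycolytic genes, 1 of 14 hypoxia genes, 1 of 15 unfolded protein and stress genes and 0 of 26 interferon genes (limma). None of the 76 named genes called reversed direction in any setting that tested it. Sign changes of named genes that were not called were not counted. The differences for Cd36 and Foxp3 stayed short of the threshold in each alternative run. For the exact test with 1 library left out this was fixed in advance, because the regroupings are too few to reach it. With 3 and 4 libraries, differences in genes of low level may go uncalled.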

Other observations

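Mitochondrial ribosomal RNAs moved against the mitochondrial mRNAs. mt-Rnr1, the small subunit rRNA, was at 5390, 4872 and 5318 FPKM in KO tumor and 3395, 3168, 3345 and 3255 in LN, higher by 0.66 ± 0.07 on the log2(FPKM + 1) scale (limma, adjusted p = 0.00063). mt-Rnr2, the large subunit rRNA, was higher by 0.45 ± 0.06 (adjusted p = 0.00155), while mt-Nd2, mt-Nd3 and mt-Nd6 were lower. WT tumor had still more of both rRNAs, and KO tumor was lower than WT tumor for mt-Rnr1 (-0.55 ± 0.09, adjusted p = 0.00911) and mt-Rnr2 (-0.44 ± 0.07, adjusted p = 0.00857). Of small noncoding RNAs, 8 of 42 tested snRNA genes were called lower and none higher. In the class misc_RNA 5 of 10 genes, among them Rn7sk and Rny1, were called higher and none lower. Other classes did not divide this way: of 90 snoRNA genes 4 were called higher and 6 lower, of 17 mitochondrial tRNA genes 2 and 1, and of 15 miRNA genes none. Of 31 T cell receptor V segments 5 were called lower and none higher. Over all tested genes 2.96% were called higher and 2.02% lower.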
